A study of Mus musculus with 2 samples.

Results

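Gpnmb, Trem2, Tyrobp, Spp1, Lgals1, Lgals3, Cd9 and Mitf are genes that lipid-laden macrophages, the foam cells of the arterial wall, are known to express. They were taken by name: every probe that the array files assign to one of the 8 genes was used, and each probe is shown. This gave 13 probes on 22 spots, out of 37074 gene names, 56605 probes and 59305 non-control spots on the array. The cells were macrophages of the peritoneal cavity from MeXis null mice and from wild-type (WT) mice, with strain bl6 given for both. MeXis is a long noncoding RNA gene near Abca1, and the comparison asks how its loss relates to macrophage gene expression. Cells of both genotypes were in DMEM with serum, and the labels name no lipid loading, LXR agonist or other treatment. Each genotype had 1 one-colour Agilent array hybridised with total RNA pooled from 3 samples. The labels give neither the age nor the sex of the mice, nor the allele behind the null. Differences are therefore between these 2 arrays, with no replicate of either and no p-value.

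GPNMB is a transmembrane glycoprotein that macrophages make when lysosomes are loaded or stressed. TREM2 is a surface receptor for lipids and lipoproteins, and it signals through its adaptor TYROBP, whose tyrosines recruit the kinase SYK. Osteopontin, the product of Spp1, is a secreted ligand of integrins and CD44. Galectin-1 and galectin-3, from Lgals1 and Lgals3, are sugar-binding lectins, and galectin-3 is also known as the macrophage antigen Mac-2. CD9 is a tetraspanin, a membrane protein that organises partner proteins at the cell surface. MITF is a basic helix-loop-helix transcription factor of the MiT/TFE family that binds E-box DNA in lysosomal genes, and GPNMB is one of its known targets in pigment cells and osteoclasts.

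Sequences are shown for 3 items, which are the Lgals3 and Tyrobp probes and the Gpnmb promoter. Of the 13 probes, those shown cover more of the genome than their length and keep a reading frame without a stop. The Lgals3 probe is the member probe printed 10 times on each array, and the Tyrobp probe reads the adaptor shared by the TREM receptors. Each is 60 bases long but covers more of the genome than that, 817 bases at chr14:48004398-48005214 for Lgals3 and 1728 bases at chr7:31200651-31202378 for Tyrobp (mm9), so its target is spliced RNA. They are given 5′ to 3′ as the array files give them, and no base is in capitals because the place of the join was not located.
Lgals3 probe: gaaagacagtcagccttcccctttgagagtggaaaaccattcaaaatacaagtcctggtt
Tyrobp probe: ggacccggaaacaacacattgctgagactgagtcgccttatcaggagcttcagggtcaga

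The promoter of Gpnmb is shown because Gpnmb had the largest difference of the 8 genes and MITF is among them. The 250 bases before its start lie at chr6:49036268-49036517 on the plus strand of GRCm38.p6, from RefSeq, with the E-box letters CANNTG in capitals.
Gpnmb promoter: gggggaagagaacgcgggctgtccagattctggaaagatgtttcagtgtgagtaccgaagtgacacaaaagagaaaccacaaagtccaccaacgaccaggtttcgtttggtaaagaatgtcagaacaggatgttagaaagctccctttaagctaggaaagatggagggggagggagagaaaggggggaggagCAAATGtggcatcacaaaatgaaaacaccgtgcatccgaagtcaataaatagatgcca

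The match in this stretch reads CAAATG and begins 58 bases before the start. Another match to CANNTG, reading CAAGTG, begins at base 5 after the start, beyond the stretch shown. The search covered both strands of windows that also take in the 50 bases after the start, and CANNTG was in 7 of the 9 windows listed for 6 of the 8 genes, against 72.3% of all 32851 windows. The 2 forms that MiT/TFE factors are known to prefer, CACGTG and TCATGTG, were in 0 of the 9 windows, against 7.15% and 3.77% of all windows. The AP-1 letters TGACTCA were in 1 of the 9, that of Gpnmb, where they begin at base 9 after the start; 5.2% of all windows hold them. A palindrome such as CACGTG is also a match to CANNTG, as is the core of TCATGTG. These matches describe letters only.

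The depth of an array is its signal over background. On the MeXis null array 26257 spots (44.3%) were well above background, against 28463 (48.0%) on the WT array, and 0 spots were saturated. Each difference is the log2 value on MeXis null minus that on WT, after each array was scaled to its 75th percentile. Over 15474 genes well above background on both arrays the median difference was 0.04, with quartiles of -0.35 and 0.44. Among 285 probes with at least 5 usable spots, the difference varied between spots of one probe with a median SD of 0.47, so a single spot needs a difference beyond 0.91, or 1.88-fold, to exceed 1.96 times that spread. This spread is technical, and the spread between mice was not measured. The probe for MeXis itself (A_66_P106525, named AI427809 in the file) had processed signals of 8.44 on the MeXis null array and 12.3 on the WT array, both too close to background to count, so it does not check the labels. The macrophage markers were there on both arrays: 10 of 12 were well above background on each, and Cd163 and Timd4 on neither.

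All 8 genes had at least 1 probe well above background on both arrays. Gpnmb was 2.74-fold higher on the MeXis null array. None of the other 7 reached 2-fold in either direction, so 1 of 8 was higher and 0 of 8 lower. At the same fold 7.35% of all genes above background were higher and 4.78% lower. At 1.5-fold the counts of members were again 1 and 0, where 18.7% of all genes were higher and 14.4% lower. Gpnmb was also the only member beyond the spread between spots, which 15.1% of all genes exceeded in either direction and 9.07% upward. Differences of 7 of the 8 were above 0, as were those of 52.8% of all genes, and the median over the 8 was 0.22.

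**Figure D1:**
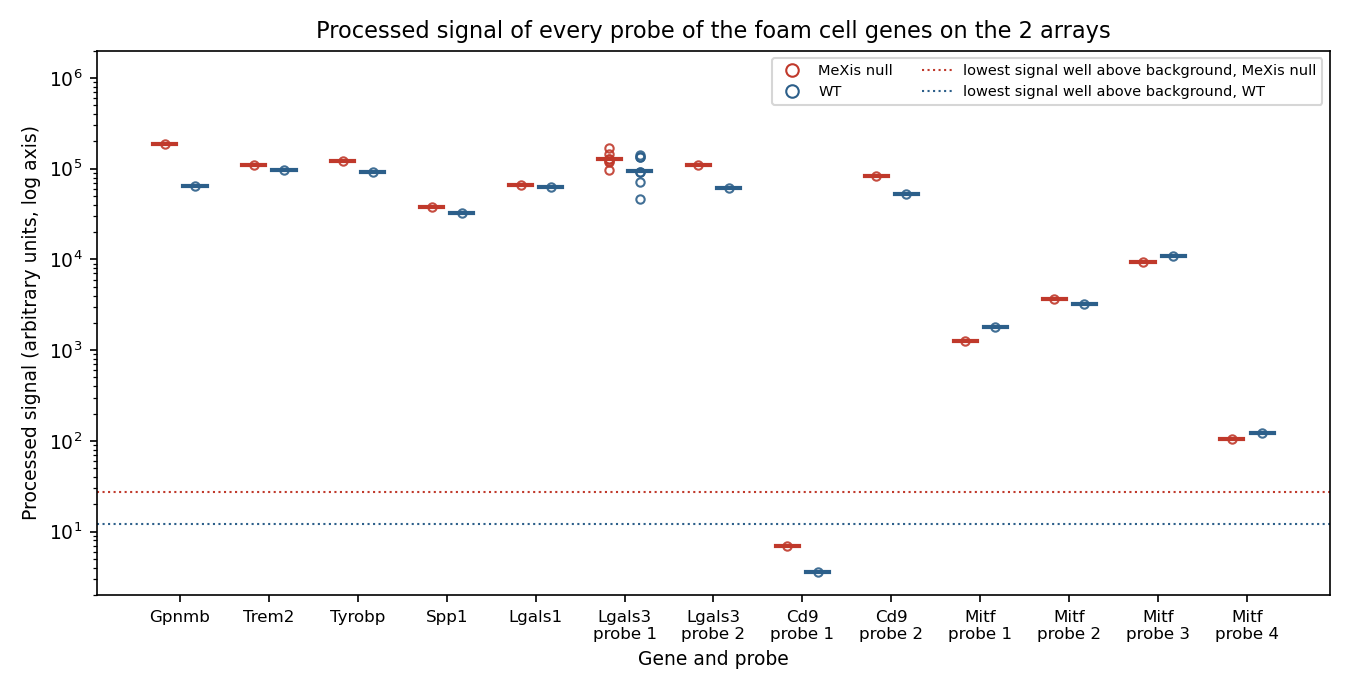
Processed signal (arbitrary units, log axis) of each of the 13 probes on the MeXis null array (red, left) and the WT array (blue, right). Circles are single spots that were used, bars are the value used for the probe, and dotted lines are the lowest signal well above background on each array; Gpnmb stands at 188467 on MeXis null and 64534 on WT, while most other pairs lie close together.

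Gpnmb was read by 1 probe on 1 spot per array, at chr6:49006386-49006445. Its processed signal was 188467 on the MeXis null array and 64534 on the WT array. The MeXis null value was thus the higher, by 1.46 on the log2 scale, with a scanner error of 0.20. The 100 spots around it had a median difference of 0.23, and with that subtracted the gene's difference was 1.23.

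The size of the Gpnmb difference depended on a correction that the scanner software made for trends across the array surface. At this spot the software divided the signal by 0.659 on the MeXis null array and by 1.05 on the WT array. The mean pixel signal before any correction was 124220 on MeXis null and 67870 on WT, a ratio of 1.83, while the processed signals had a ratio of 2.92. From the signal before that surface factor the scaled difference was 0.79, or 1.73-fold. It was also 0.79 with normexp background correction, which starts from signals without that factor too, so these values are not independent. Both values are below 2-fold and inside the spread between spots, though still the highest of the 8 genes. Whether the surface factor is right at this spot was not tested.

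Trem2, the receptor, had a processed signal of 110592 on the MeXis null array and 96607 on the WT array. The 2 arrays were thus nearly level at chr17:48491537-48491596, with a difference of 0.10. Over 12 other settings of the analysis its difference lay between -0.06 and 0.35, above 0 in 9 of them. The 9 include settings that could not move a gene read by 1 spot, such as keeping outlier spots, and so repeat the 0.10. Tyrobp, the adaptor, had 121468 on MeXis null and 92755 on WT. Its difference was 0.30, between 0.10 and 0.30 under the other settings, and within the scanner error limit of 0.40. The receptor and its adaptor therefore had no difference that can be told from the error of the spots.

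Spp1, the secreted ligand, had a processed signal of 37717 on the MeXis null array and 32262 on the WT array at chr5:104869788-104869847. This difference of 0.13 was close to the median of 0.15 among the neighbouring spots, and after the local surface correction it was -0.01. The software marked the background around the MeXis null spot as an outlier, but not the spot itself.

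Lgals1 had a processed signal of 66676 on the MeXis null array and 62170 on the WT array at chr15:78760566-78760625. Its difference was 0.01, and it lay between -0.15 and 0.47 over the other settings, above 0 in 8 and below 0 in 4. The 8 include settings that could not move a gene read by 1 spot, such as keeping outlier spots, and so repeat the 0.01. The highest value came from the local surface correction, because the 100 spots around the Lgals1 spot had a median difference of -0.46. No direction can be given for galectin-1.

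Lgals3 has the best measured error of the 8 genes, since the probe shown above was printed 10 times. Its spots had processed signals from 77257 to 168733 with a median of 127799 on the MeXis null array, against 46199 to 142884 with a median of 95306 on the WT array. The ranges overlapped, while MeXis null was the higher on 8 of the 10 spots. On the MeXis null array 3 of the spots were marked as outliers and left out, and on the WT array 0 were marked. The other 7 averaged 129355 on MeXis null and 102028 on WT, a mean log2 difference of 0.33 ± 0.50 (SD, n = 7 spots), with 6 of 7 above 0. The standard error of that mean was 0.19, which covers the spots of these 2 arrays and not the mice.

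The spread of those spots shows how far a single spot can stray. The differences of the 7 used spots ran from -0.24 to 1.37 with a median of 0.25. The spot at 1.37 alone would have placed Lgals3 close to the 1.46 of Gpnmb, which has no second spot. Its neighbours had a median difference of 0.55. With neighbours subtracted the SD over the 7 spots was 0.31 and their mean 0.26, with a standard error of 0.12. A second Lgals3 probe at chr14:48005414-48005473 had 109566 on MeXis null and 61137 on WT, a difference of 0.75, or 1.68-fold. It too was higher on MeXis null, beyond the scanner error limit of 0.40 but inside the spread between spots.

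**Figure D2:**
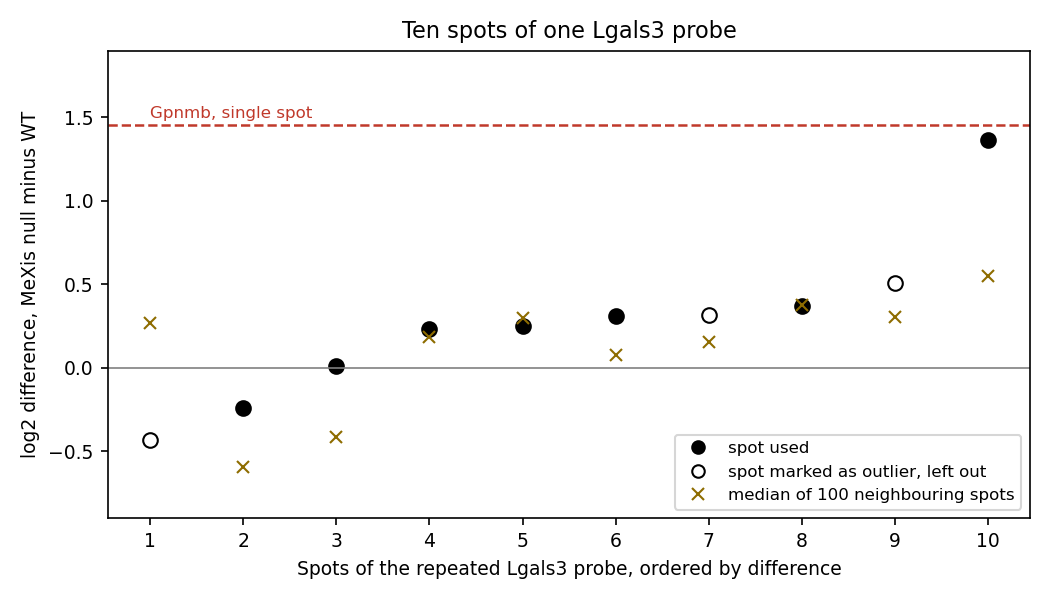
Difference (log2, MeXis null minus WT) of the 10 spots of the repeated Lgals3 probe, ordered by size, with used spots filled, spots marked as outliers open, and crosses at the median of the 100 neighbouring spots. The dashed line is the single Gpnmb spot at 1.46; the used Lgals3 spots run from -0.24 to 1.37, and the highest of them nearly meets that line.

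Cd9 had a processed signal of 82964 on the MeXis null array and 53126 on the WT array at chr6:125410631-125410690. MeXis null was the higher by 0.55, or 1.47-fold. This is beyond the scanner error limit of 0.40 but inside the spread between spots, and the range over the other settings was 0.39 to 0.55. Another probe under the name Cd9, at chr6:125445268-125445327, had 6.85 on MeXis null and 3.61 on WT and did not stand well above background on the arrays. The file gives its coordinates in the orientation opposite to those of the first probe, so it need not read the Cd9 mRNA.

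Mitf, the transcription factor, was the one member whose representative value was lower on the MeXis null array. Its brightest probe, at chr6:97971229-97971288, had 9283 on MeXis null and 11029 on WT, a difference of -0.34. That difference is within the scanner error limit of 0.40, and over the other settings it lay between -0.42 and -0.12, below 0 in all 12. Of its other probes, the one at chr6:97968386-97968445 had 1249 on MeXis null and 1782 on WT. Its difference of -0.60 was beyond the scanner error limit of 0.40. The one at chr6:97968501-97968560 had 3664 on MeXis null and 3224 on WT, a difference of 0.09. The dimmest, at chr6:97892054-97892113, had 104 on MeXis null and 122 on WT, a difference of -0.32. The Mitf probes thus disagreed in sign, with 3 of 4 lower on MeXis null, and none differed beyond the spread between spots.

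**Figure D3:**
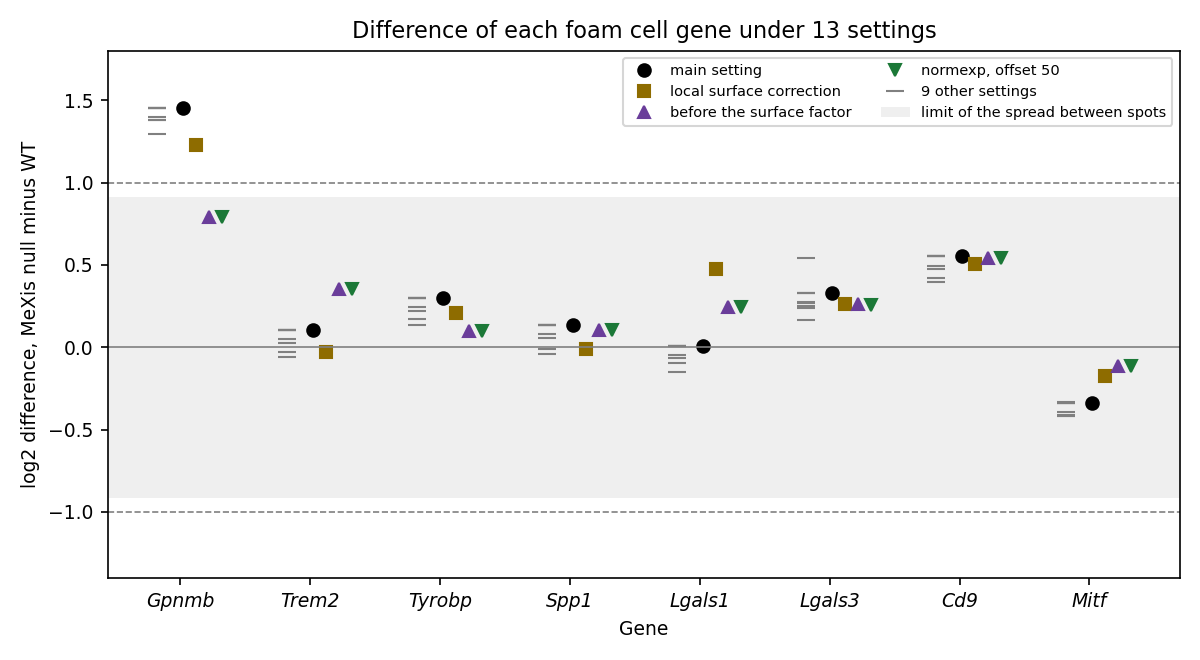
Difference (log2, MeXis null minus WT) of each of the 8 genes under the main setting (circle), the local surface correction (square), the signal before the surface factor (upward triangle), normexp (downward triangle) and 9 other settings (dashes). The grey band is the spread between spots (0.91 either way) and dashed lines mark 2-fold; Gpnmb lies above 2-fold in all but the triangles at 0.79, and the other genes lie inside the band.

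The signal of another cell type could move with these genes, since RNA was measured in bulk, where fewer cells of a type and less RNA per cell cannot be told apart. Macrophage markers summed to 468277 on the MeXis null array and 318114 on the WT array. Their median difference was 0.23 over 10 genes, 1 of them at least 2-fold higher and 1 lower. After the local surface correction that median was -0.02. Fibroblast markers summed to 13792 on MeXis null and 7799 on WT, and 5 of the 9 with signal on each array were at least 2-fold higher. Lum and Fap, the 2 fibroblast markers well above background on WT only, went the other way. Lum had 40.3 on MeXis null and 131 on WT, which is 3.45-fold lower. Fap had 10.8 on MeXis null and 53.9 on WT. Against 27.3, the lowest MeXis null signal counted as above background, Fap was 2.10-fold lower. Neither fold is a firm bound, since the 40.3 of Lum was itself not counted. Mesothelial markers summed to 2367 on MeXis null and 991 on WT, and 4 of 8 were past 2-fold, all higher. At 2-fold, 7.35% of all genes above background were higher and 4.78% lower. Dim probes as a whole read higher on MeXis null. With no filter on them the median over all genes was 0.46, against 0.008 with signals of at least 100. Several fibroblast and mesothelial markers were dim on WT, among them Fbn1 at 80.5 and Upk3b at 50.4, while Wt1 had 357. The part of this in their values was not tested. B cell markers summed to 2841 on MeXis null and 4285 on WT, and 2 of 7 were at least 2-fold lower and 0 higher. Stromal and lining cells are known to express Spp1, Lgals1 and Cd9, and the part of these cells in the values above was not tested. Pigment cells, another known source of Gpnmb and Mitf, had 4 of their 6 markers at background on each array, namely Tyr, Tyrp1, Mlana and Sox10. The other pigment cell markers were dim but above background: Dct had 74.4 on MeXis null and 65.2 on WT, and Slc24a5 had 37.5 on MeXis null and 54.6 on WT. The part of pigment cells in the Gpnmb and Mitf values was not tested.

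The wider programme around these genes was followed through 8 gene lists of 133 different genes in all, 109 of them above background on both arrays. Of these, 11 (10.1%) were at least 2-fold higher on MeXis null and 6 (5.50%) lower, with a median of -0.08. These shares lie near the 7.35% and 4.78% of all genes.

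Among 25 lipid-associated macrophage genes above background, 4 were at least 2-fold higher on MeXis null and 3 lower, with a median of 0.18. Fabp5, a carrier of fatty acids, had 187575 on MeXis null and 32877 on WT, a difference of 2.42. Fth1, the ferritin heavy chain, had 227384 on MeXis null and 69373 on WT, a difference of 1.62. Both spots lay where their neighbours were high too: after the local surface correction Fabp5 was at 1.49 and Fth1 at 0.57, below 2-fold. Axl, a receptor for apoptotic cells, was 2.77-fold lower on MeXis null, and Ank, a pyrophosphate transporter, 2.34-fold lower. Axl was past 2-fold in 12 of 12 other settings and Ank in 11, where Ank ranged from -1.96 to -0.86. The list thus held genes far from 0 in both directions.

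The next list held the TREM family, TYROBP-coupled receptors and related genes. Of its 12 genes above background, 0 were at least 2-fold higher and 1 was lower, with a median of 0.04 that was below 0 in 7 of 12 other settings. That one was Pilrb1, an activating receptor, with the low signals of 96.1 on MeXis null and 327 on WT, a difference of -1.86 that was -1.10 after the local surface correction. Treml2, a TREM-like receptor, was at -0.84 and Sirpb1b at 0.36. Treml2 was at -1.11 after the local surface correction, -1.60 with normexp and -1.68 before the surface factor, so it was past 2-fold in 3 of 12 other settings. Cd300ld was at 0.38, but at 1.62 with normexp and 1.63 before the surface factor. In those 2 settings the list held 1 gene higher and 3 lower.

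Downstream of TYROBP, 0 of 19 genes were at least 2-fold higher on MeXis null and 1 was lower, with a median of -0.17 that was below 0 in 12 of 12 other settings. The lower gene was Syk, the kinase itself, with 7363 on MeXis null and 17634 on WT, a difference of -1.35. It was past 2-fold in 12 of 12 other settings, but its 4 probes above background disagreed in sign. Vav1, an exchange factor for Rac, had a difference of -0.97 from its 1 probe and was past 2-fold in 6 of 12 other settings, where the count of lower genes was 2. With normexp, and with the signal before the surface factor, the count of higher genes was 1. Lat2, an adaptor, was at 0.80, and Adam17, the protease that cuts TREM2 from the cell surface, was at 0.76 with probes that disagreed in sign.

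Of 25 MiT/TFE factors and lysosomal targets above background, 3 were at least 2-fold higher on MeXis null and 1 lower, with a median of -0.11 that was above 0 in 2 of 12 other settings. The proton pump subunit gene Atp6v0d2 had 25272 on MeXis null and 7694 on WT, a difference of 1.63, and the related gene Atp6v0d1 was at 1.15. Atp6v0d2 was past 2-fold in 12 of 12 other settings and Atp6v0d1 in 10. Ctsk, the collagen-cutting cathepsin K, had 32035 on MeXis null and 77312 on WT, a difference of -1.36 that was past 2-fold in 12 of 12 other settings. Fnip2, a folliculin partner, was at -0.84 with probes that disagreed in sign. The other factors of the family were each below 2-fold: Tfec was at 0.51, Tfeb at 0.09 with probes that disagreed in sign, and Tfe3 at -0.39. Known lysosomal targets of this family thus lay on both sides of 0.

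Osteopontin binds integrins and CD44. Of 7 such receptors and osteopontin relatives above background, 1 was at least 2-fold higher on MeXis null and 0 lower, with a median of -0.18 that was above 0 in 3 of 12 other settings. Itga5, an integrin chain, had 1758 on MeXis null and 782 on WT, a difference of 1.08 that ran from 1.00 to 2.11 over the other settings. Itgb3 was at 0.61, Cd44 at -0.33 and Itgb5 at -0.39, and the probes of Itgb3 and Cd44 disagreed in sign. Itgav, another integrin chain of the list, was well above background on WT only. It had 21.8 on MeXis null and 40.7 on WT. Against 27.3, the lowest MeXis null signal counted as above background, it was 1.59-fold lower. This is not a firm bound, since some signals above 27.3 were not counted, and the scanner error was 0.48. The bone matrix relatives Ibsp, Dmp1, Dspp and Mepe were at background on each array.

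Among 6 other galectins and partners above background, Lgals9 was the 1 gene at least 2-fold higher on MeXis null, and 0 were lower. Lgals9 had 866 on MeXis null and 292 on WT, a difference of 1.48 that ran from 1.35 to 2.37 over the other settings. Lgals12 was at 0.36, Lgals8 at -0.49 and Mgat5, an enzyme that builds galectin ligands, at -0.51. The probes of Lgals8 and of Mgat5 disagreed in sign, and with the median of each gene's probes Lgals8 was at 0.21 and Mgat5 at 0.04.

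Of 17 tetraspanins and partners of CD9, 1 was at least 2-fold higher on MeXis null and 0 lower. Tspan33 had 4564 on MeXis null and 1641 on WT, a difference of 1.38, and with the median of its 2 probes it was at 0.78. Ptgfrn, a direct partner of CD9, was at 0.91, while Cd151 was at -0.58 and Tspan3 at -0.75. Cd151 changed sign to 0.11 after the local surface correction, and Tspan3 was at -0.23 with normexp and -0.24 before the surface factor. Of the 5 GPNMB relatives and receptors, 2 were above background on both arrays. Sdc4, the syndecan that GPNMB is known to bind, had 1224 on MeXis null and 467 on WT, a difference of 1.30 that was 0.88 after the local surface correction, and the other gene was Cd44.

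**Figure D4:**
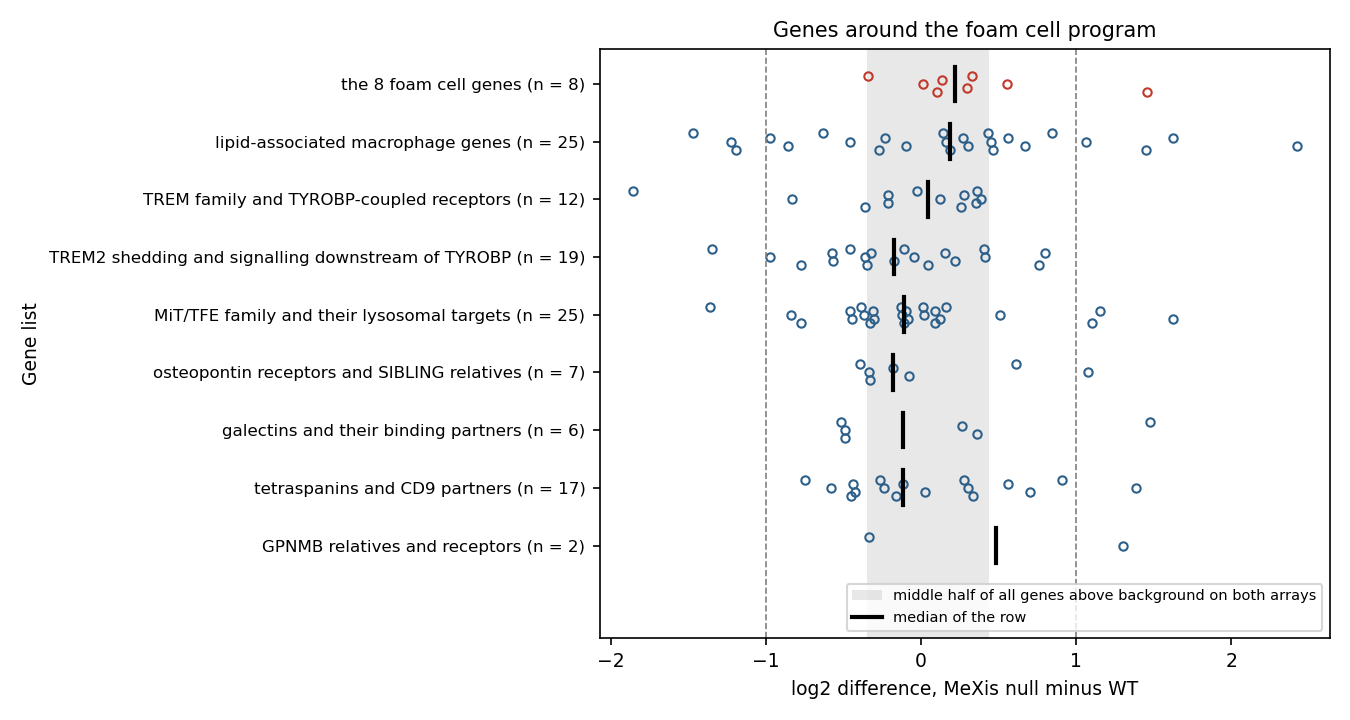
Difference (log2, MeXis null minus WT) of each gene above background on both arrays, with the 8 foam cell genes in red and the 8 lists in blue; short black bars are medians, dashed lines mark 2-fold, and the grey band is the middle 50% of all genes, from -0.35 to 0.44. The lists hold points inside and outside the band, and the lipid-associated macrophage genes run from -1.47 to 2.42. Fabp5 at 2.42 and Pilrb1 at -1.86 lie far outside.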

How the data were processed

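Cy3-labelled RNA was hybridised to 1 one-colour Agilent array per genotype, both on the same slide and scanned together. The deposited scanner files hold spot intensity on a linear scale from Agilent Feature Extraction 11.5.1.1, with background subtraction and surface detrending, per the file headers, which give mm9 coordinates. In 62976 features the intensity in the deposited series matrix was the same as the processed signal (medians 17.0 on MeXis null and 12.9 on WT), so it is linear and not centred, and 0 of its columns lacked a sample.

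Processed signals were put on a log2 scale, and the 75th percentile of each array was subtracted, taken over the probes that stood well above background on each. Spots marked as outliers (205 on MeXis null, 305 on WT) were left out, spots of one probe were averaged, and a gene took its brightest probe. Symbols were updated through RefSeq (GRCm38.p6, names and promoters only): an accession named 32994 probes, a symbol 10224 and a synonym 520, while 12867 kept the file's name. Cd36, Lipa and Gla had no usable probe. With 1 array per genotype a gene was called at 2-fold, with no test. Named genes were the members, the highest and lowest 2 genes of each list, and Tfeb, Tfe3 and Tfec. Genes named as at background or as above it on WT only, and MeXis, were picked once their values had been seen. The members and lists were chosen with earlier results of these data known. Alternatives are given below; limma 3.58.1 ran normexp. The steps were tested on simulated data, but with less spread between spots than the 0.47 of these arrays and no surface trend.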

Additional observations from a re-analysis of the deposited data

How the results depend on the processing

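The values were recomputed under 12 other settings and 2 other folds. No member or named list gene that was past 2-fold changed sign; list genes not named and marker genes were not followed one by one. Gpnmb kept its direction in 12 of 12 and was at least 2-fold higher in 10. Not every setting could move each gene. The series matrix, keeping outlier spots and the signal filters left a bright gene with unmarked spots at its main value. So did the median over probes for a gene with 1 probe. Gpnmb is such a gene, so its counts hold repeats of the main value. Gpnmb was at 0.79 with normexp and 0.79 with the signal before the surface factor, a setting chosen after seeing the data. Both of these settings start from signals without that factor. The count of members higher was then 0 in both, and 0 at 3-fold. No setting brought another member to 2-fold, and the median over the 8 genes lay between 0.06 and 0.25. For the pooled list genes, normexp and the signal before the surface factor each gave 10 lower genes, with medians of 0.0169 and 0.0173. Their median was -0.13 with loess, -0.16 with scaling to the median, -0.14 with the percentile of all probes, -0.00903 with the local surface correction, 0.0248 with the median of a gene's probes and 0.0232 with no filter on dim probes. At 1.5-fold 18 of them were higher and 15 lower, and at 3-fold 3 and 1. Scaling to the median and the percentile of all probes shift every gene by the same amount. With them the median over all genes went from 0.04 to -0.04 and to -0.02. The cause of the other moves was not tested. The series matrix gave the values of the main setting. No paired analysis was possible because each genotype has 1 array. Signal over background limits the dim genes: the lowest signal well above background was 27.3 on MeXis null and 12.1 on WT.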
